A study of Mus musculus with 16 samples.

Results

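The genes described here are 10 members of the suppressor of cytokine signalling (SOCS) and PIM kinase families, *Socs1* to *Socs6*, *Cish*, *Pim1*, *Pim2* and *Pim3*. They were chosen by name, as members of families that include genes known to be switched on by STAT transcription factors. They are 10 of the 29453 genes counted. All 10 were detected, with 2633 unique molecular identifiers (UMIs, 1 per captured RNA molecule) for *Cish* and 97592 for *Pim1* over 16 libraries.

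The study asked what cells without *Stat3* do in an embryo that they share with wild-type (WT) cells. Embryonic stem cells (ESCs) lacking *Stat3* and carrying tdTomato, a red fluorescent protein, were injected into WT blastocysts, and the resulting chimeras were taken at 3 stages (E7.5, then E8.5, then E9.5). After dissociation, cells were sorted by tdTomato into null and WT fractions, and 3′ single-cell RNA libraries were made of each. Each genotype had 2 libraries at either of the first stages and 4 libraries at E9.5. Null cells carried an allele in which exons near the end of *Stat3* were replaced by a neomycin cassette, and tdTomato was added to ESC lines picked as clones. The null ESCs and the host embryos were both of the CD1 background. WT cells were those of the host embryo, so the 2 genotypes also differ in the ESC line and in tdTomato. E7.5 and E8.5 embryos were pooled. The paper classed the E7.5 embryos as large or small, so the 2 E7.5 libraries of a genotype may differ in embryo size. Which library holds which size is not known. At E9.5 the labels give single embryos in 4 pools whereas the methods name fewer embryos, so p-values measure the spread between libraries and some libraries may share an embryo. Libraries were tied to a stage and genotype through the deposited cell table, not through sample titles. The libraries of a group are called A to D, and equal letters of different groups do not mark a pair.

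After removal of doublets and of 596 WT-sorted cells with a tdTomato UMI, 37841 cells were analysed, with 360 to 4327 cells and 20682659 to 138613245 UMIs per library. *Stat3* itself, the check of the labels, was at 6.14 to 9.31 CPM (UMIs of the gene per 1000000 UMIs of the library or of its cells of a type) in the 8 WT libraries and at 1.16 to 2.53 CPM in the 8 null libraries. The ranges did not overlap, although 3′ tags lie beyond the deleted exons and so need not fall to 0. Libraries C and D of E9.5 WT shared 292 cell barcodes, against at most 8 for any other pair of libraries, and only 10 of these 292 had the same cell type in both. Results that use these libraries are given with and without those cells where that changed a call.

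Cytokine receptors activate JAK kinases, which phosphorylate STAT proteins. STAT dimers then enter the nucleus and bind DNA at sites with the core TTCNNNGAA. *Socs1*, *Socs3* and *Cish* are classic targets of this kind whose proteins feed back on receptors and JAKs: SOCS1 and SOCS3 inhibit JAKs directly, whereas CISH and SOCS2 bind phosphorylated receptor tails. SOCS4, SOCS5 and SOCS6 belong to the same family through the SOCS box, which recruits a ubiquitin ligase, and are better known for acting on receptor tyrosine kinases. The PIM proteins are serine/threonine kinases that are active as soon as they are made, so that their level follows transcription, and they promote survival and growth of blood cells. In red cell precursors the erythropoietin receptor signals mainly through STAT5, with *Cish* and *Pim1* among its known targets.

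The windows around the transcription start show which members carry the STAT core next to the start. Promoter windows of 300 bases, 250 before and 50 after the start, were read from RefSeq on GRCm38.p6 for 7 of the members, and *Socs2*, *Socs5* and *Socs6* were not analysed here. The core TTCNNNGAA, which reads the same on both strands, was found in *Cish* and *Socs3* and in neither start of *Pim1*, nor in *Pim2*, *Pim3*, *Socs1* or *Socs4*. Of 32851 such windows in the genome, 8.30% held the core and 0.457% held 2 or more, as *Cish* did. In *Cish* the matches begin at bases 1 and 12 counted from the start site, and in *Socs3* the match begins 154 bases before it. The start sites read, 107296659 for *Cish* and 117969366 for *Socs3*, lie inside the annotated gene spans. These spans are 107296026 to 107302784 and 117966079 to 117970047, and starts at their outer ends were not searched. The stretches below run from 230 bases before the start to 20 after it and show *Cish* and *Socs3*, with the core in capitals, and *Pim1*, the member called in cell types below, which has no match. They lie at chr9:107296429-107296678 on the plus strand, chr11:117969347-117969596 on the minus strand and chr17:29490555-29490804 on the plus strand.
Cish: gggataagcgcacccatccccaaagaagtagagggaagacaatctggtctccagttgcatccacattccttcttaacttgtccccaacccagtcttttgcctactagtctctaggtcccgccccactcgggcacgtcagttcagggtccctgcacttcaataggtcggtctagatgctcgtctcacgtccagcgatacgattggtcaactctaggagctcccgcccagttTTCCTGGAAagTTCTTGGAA
Socs3: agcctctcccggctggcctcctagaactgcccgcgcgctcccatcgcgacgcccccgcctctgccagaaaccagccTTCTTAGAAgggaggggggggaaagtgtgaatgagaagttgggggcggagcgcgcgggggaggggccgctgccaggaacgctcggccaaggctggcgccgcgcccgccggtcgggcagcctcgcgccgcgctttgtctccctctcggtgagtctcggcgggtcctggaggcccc
Pim1: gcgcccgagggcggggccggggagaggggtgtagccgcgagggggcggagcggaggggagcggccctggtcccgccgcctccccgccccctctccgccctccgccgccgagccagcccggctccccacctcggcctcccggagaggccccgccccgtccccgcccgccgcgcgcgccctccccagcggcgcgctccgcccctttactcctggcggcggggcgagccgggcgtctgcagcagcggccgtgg
A match of these letters is a description of the window and not a measured binding site.

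*Pim1* (chromosome 17, 29490753 to 29496112) was the member that differed most firmly between genotypes, and it did so in blood cells. In cells that the authors labelled Erythroid at E8.5, *Pim1* was at 269.9 and 259.4 CPM in WT libraries A and B and at 99.9 and 92.0 CPM in null libraries A and B. Both null libraries lay far below both WT libraries. The difference was -1.51 on the log2 scale (SE 0.16, adjusted p = 0.0361, edgeR quasi-likelihood test), and *Pim1* was 1 of the 0.069% of 10143 genes called lower in null cells of this type. Calls required both an adjusted p under 0.05 and more than a 2-fold difference. The p moved to 0.0642 without WT library A, the only library whose removal ended the call.

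All 9 red cell markers, among them the embryonic globins *Hbb-bh1* and *Hba-x*, were present in every E8.5 Erythroid library. Their summed level was 138340 to 226252 CPM in WT and 98937 to 201072 CPM in null, with overlapping ranges. Markers of myeloid cells summed to at most 0.854 CPM and those of endothelium to at most 9.74 CPM. The labelled cells were thus red cell precursors by their markers in both genotypes. There were 426 and 622 of them in WT and 594 and 131 in null.

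The fall in *Pim1* was larger in Erythroid cells than in the rest of the same libraries. In all other cells of the E8.5 libraries *Pim1* was at 65.4 and 51.9 CPM in WT and at 56.0 and 44.7 CPM in null, so the ranges overlapped. The genotype difference in Erythroid cells differed from that in other cells by -1.41 (SE 0.15, adjusted p = 0.000769, edgeR interaction test), where 0.407% of 13263 genes passed. It missed the threshold without null library A, the larger of the null libraries (adjusted p = 0.175).

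Red cell precursors of the libraries did not sit at the same point of maturation, since the atlas cells they matched had a mean embryonic day of 9.07 and 8.504 in WT and 8.87 and 8.41 in null. *Pim1* was therefore set out by matched day. Among cells matched to day 8.5, it was at 271.4 (87 cells) and 269.8 CPM (363 cells) in WT and at 85.0 (236 cells) and 91.8 CPM (63 cells) in null. At day 9.0 the WT libraries reached 347.1 and 339.2 CPM and the null libraries 100.4 and 112.6 CPM. At these 2 days all 4 libraries held at least 10 cells, and both null libraries were below both WT libraries. At the other days some libraries held fewer cells and the order varied. At day 8.75 the WT libraries were at 249.2 (6 cells) and 290.4 CPM and the null libraries at 126.0 and 142.9 CPM (4 cells). At day 9.25 the WT libraries were at 255.5 and 262.3 CPM (6 cells) and null A at 118.4 CPM, whereas null B stood above both WT libraries at 527.0 CPM, from 25 UMIs in 2 cells. At day 8.25 WT A was at 210.9 CPM (2 cells) and null A at 186.7 CPM (8 cells), close to each other. In WT library B, *Pim1* stood at 109.3 CPM in cells matched to day 8.0 and at 222.5 CPM at day 8.25. In null library B the same 2 days gave 64.6 and 82.6 CPM. The rise between these days could be followed in 1 library per genotype. None of the values by matched day has a test.

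**Figure D1:**
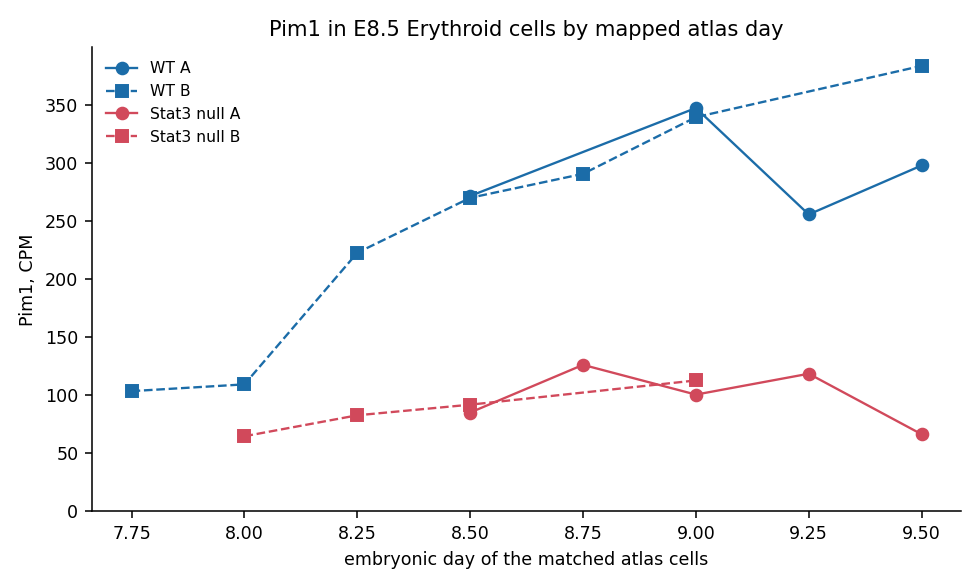
*Pim1* level (CPM, y axis) in E8.5 Erythroid cells against the embryonic day of the atlas cells they matched (x axis), 1 line per library (blue WT, red null), for days with at least 10 cells of a library. WT libraries lie at 269.8 and 271.4 CPM at day 8.5 while null libraries lie at 85.0 and 91.8 CPM.

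Null-sorted cells can include WT cells, and 69.7% and 37.4% of the null Erythroid cells in libraries A and B held a tdTomato UMI. In library A, *Pim1* was at 93.3 CPM in cells with a tdTomato UMI and at 116.4 CPM in those without. In library B the order was the other way, 102.1 CPM with and 85.1 CPM without. Both kinds of null cell were below both WT libraries. *Stat3* in these Erythroid cells was at 16.7 and 18.7 CPM in WT and at 5.77 and 2.19 CPM in null (-1.93, SE 0.37, adjusted p = 0.194, edgeR), so the ranges were apart but the difference did not pass. By tdTomato UMI it was at 5.93 CPM with and 5.39 CPM without in null A, and at 2.93 and 1.68 CPM in null B. With null cells lacking a tdTomato UMI left out, the *Pim1* difference was -1.49 with an adjusted p of 0.000876 (edgeR).

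Erythro-myeloid progenitors (EMP), the yolk sac cells that give rise to red cells and myeloid cells, showed the other called difference. At E9.5 *Pim1* was at 166.7, 227.1, 141.3 and 230.9 CPM in the 4 WT libraries and at 46.5, 41.8, 40.0 and 59.5 CPM in the 4 null libraries. The 2 genotypes did not overlap. The fit used libraries with more than 15 cells, hence null A (71 cells) and null D (20 cells) only, and gave -1.88 (SE 0.26, adjusted p = 0.0470, edgeR), where 0.0912% of 8771 genes were called lower. This call was fragile: the adjusted p was 0.0583 without the cells whose barcodes WT C and D share, and it was lost without null A (0.198), null D (0.108), WT A (0.0686) or WT B (0.0856). Myeloid markers summed to 669 to 1118 CPM in WT and 774 to 1039 CPM in null EMP cells. Red cell markers summed to 263 to 1051 CPM in WT and 29.7 to 1747 CPM in null, and their part in the result was not tested.

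Elsewhere in the blood lineage the genotypes were closer or the cells too few. Blood progenitors at E7.5 had *Pim1* at 95.1 and 76.0 CPM in WT and at 91.3 and 86.5 CPM in null. In Haematoendothelial progenitors at E7.5, the mesoderm that yields blood and vessels, the values were 56.3 (8 cells) and 47.2 CPM in WT and 71.4 and 66.9 CPM in null. At these earlier steps null libraries were thus within or above the WT range. At E9.5 the Erythroid label held 38 to 164 cells in a WT library and only 2 to 9 in a null library, with *Pim1* at 236.9, 298.8, 262.7 and 261.3 CPM in WT and 290.7, 99.6, 153.5 and 184.6 CPM in null. A fit over all 8 libraries gave -0.54 (SE 0.22, adjusted p = 0.253, edgeR). E8.5 EMP cells, with 7 cells in null library B, had 89.3 and 84.1 CPM in WT and 50.04 and 5.77 CPM in null. That lowest value is 1 UMI, and no test was made for this type.

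**Figure D2:**
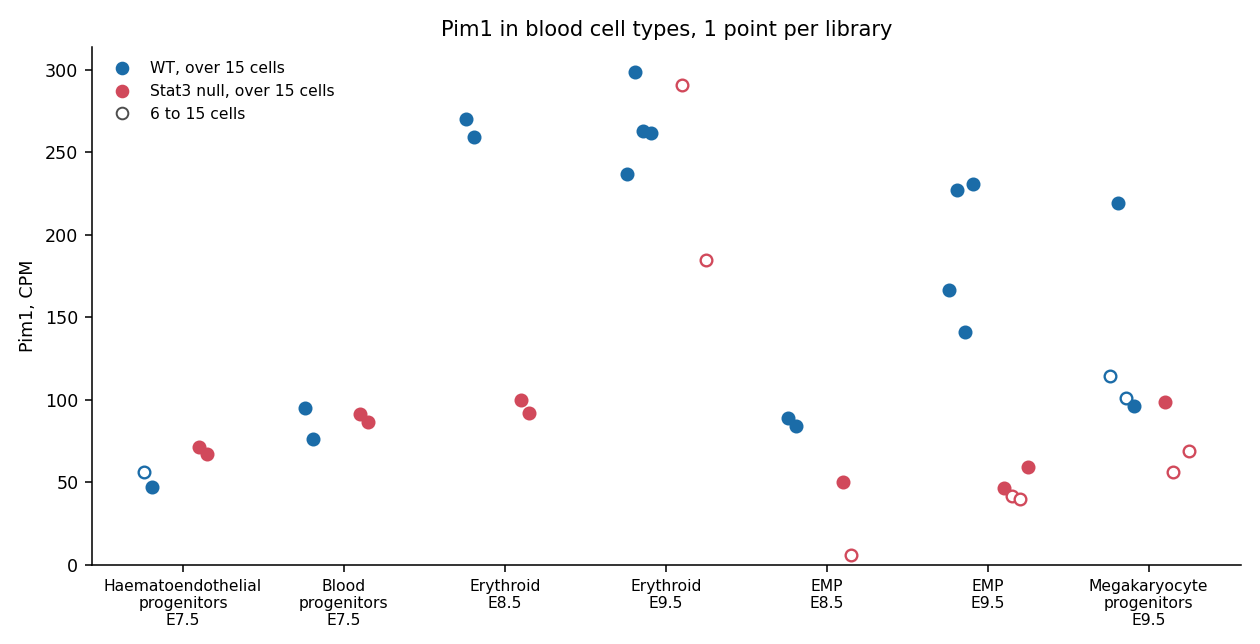
*Pim1* level (CPM, y axis) in 7 blood cell types by stage (x axis), 1 point per library (blue WT, red null), filled for over 15 cells and open for 6 to 15 cells, while libraries with fewer cells are not drawn. E8.5 Erythroid null libraries sit at 92.0 and 99.9 CPM against 259.4 and 269.9 CPM in WT, and at E7.5 the genotypes overlap in Blood progenitors.

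*Cish* (chromosome 9, 107296026 to 107302784), the cytokine-inducible SH2 protein, showed the largest fold difference of the members in E8.5 Erythroid cells without passing the test. It was at 8.55 and 5.56 CPM in WT (162 and 91 UMIs) and at 1.22 and 0.994 CPM in null (30 and 5 UMIs). The ranges were apart, which with 2 libraries per genotype is not a test. The difference was -2.63 (SE 0.40, adjusted p = 0.0773, edgeR), and it passed under DESeq2 (0.000210) and in 4 other alternatives. The difference between Erythroid and other cells did pass, at -2.64 (SE 0.47, adjusted p = 0.0236), but not without null A (0.607), null B (0.176) or WT A (0.0510). Annotated exons of *Cish* and *Pim1* overlap antisense genes (*Gm17040*, *Gm17041* and *Gm26885*). In cells matched to day 8.5, *Cish* was at 8.43 and 5.75 CPM in WT and at 1.57 and 0.827 CPM in null. The paper ordered single cells along red cell differentiation and used another test. It had already reported dysregulation of both *Cish* and *Pim1* in null cells of this lineage.

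*Socs2* and *Socs3* were also lower in the null Erythroid libraries, in values that did not pass the test. *Socs2*, an inhibitor best known for restraining growth hormone signalling, was at 6.70 and 7.15 CPM in WT and 3.70 and 2.39 CPM in null (log2 difference -1.09, SE 0.28, adjusted p = 0.292, edgeR). *Socs3*, the main brake on receptors of the gp130 family, was at 1.00 and 1.16 CPM in WT and 0.244 and 0.596 CPM in null, from 3 to 19 UMIs per library (-1.72, SE 0.59, adjusted p = 0.479). Both sets of libraries were apart, but the share of all genes with ranges apart is not given here, and the sizes rested on single libraries. Without null A the differences were -1.70 for *Socs2* and -1.004 for *Socs3*, and without null B they were -0.85 and -2.06.

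The other members overlapped or lay slightly higher in null Erythroid cells, and none of them passed. *Pim3* was at 10.3 and 16.4 CPM in WT and 9.07 and 15.9 CPM in null. *Pim2* was at 0.897 to 1.47 CPM in WT and 0.976 to 0.994 CPM in null. *Socs4*, *Socs5* and *Socs6* had log2 differences of 0.27, 0.17 and 0.26, with adjusted p of 0.741 to 0.955. *Socs1* had 0 to 7 UMIs per library and failed the filter on low counts, so it was not tested in this type. Of the 10 members, 9 were tested and 1 was called.

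Across all cell types, 64 fits could be made, 7 at E7.5, 20 at E8.5 and 37 at E9.5. The members gave 640 pairs of gene and cell type, of which 452 passed the filter on low counts. At E7.5 none of 56 pairs was called by edgeR, against 0.186% of all gene and type pairs. The count was also 0 by DESeq2 and by limma-voom, and 5 pairs had an unadjusted p under 0.05. At E8.5 1 of 137 pairs was called against 0.0609%, and at E9.5 1 of 259 against 0.12%. These calls are the 2 *Pim1* results in blood cells. Unadjusted p under 0.05 was reached by 8.93%, 6.57% and 6.18% of member pairs at the 3 stages and by 4.06%, 4.32% and 6.26% of all pairs.

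Signs were uneven for some members, though fits of a stage share libraries and are not independent. At E7.5 *Pim1* was higher in null cells in 7 of 7 types (median log2 difference 0.28), as was *Socs6* in 7 of 7 (0.20), whereas *Socs2* was lower in 7 of 7 (-0.30) and *Pim2* in 6 of 6 (-0.49). *Socs3* was lower in 4 of 4 types, *Pim3* in 6 of 7, *Socs5* in 5 of 6, *Socs4* in 5 of 7 and *Socs1* in 2 of 5. None of these was called, and the share of all genes with 1 sign in every type is not given here. At E9.5 *Socs6* was higher in 30 of 37 types and *Pim3* lower in 30 of 37, with medians of 0.09 and -0.10. *Pim1* at E9.5 was split, lower in 17 types and higher in 20. Of all gene and type pairs, 49.7% were lower at E7.5 and 50.3% at E9.5.

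**Figure D3:**
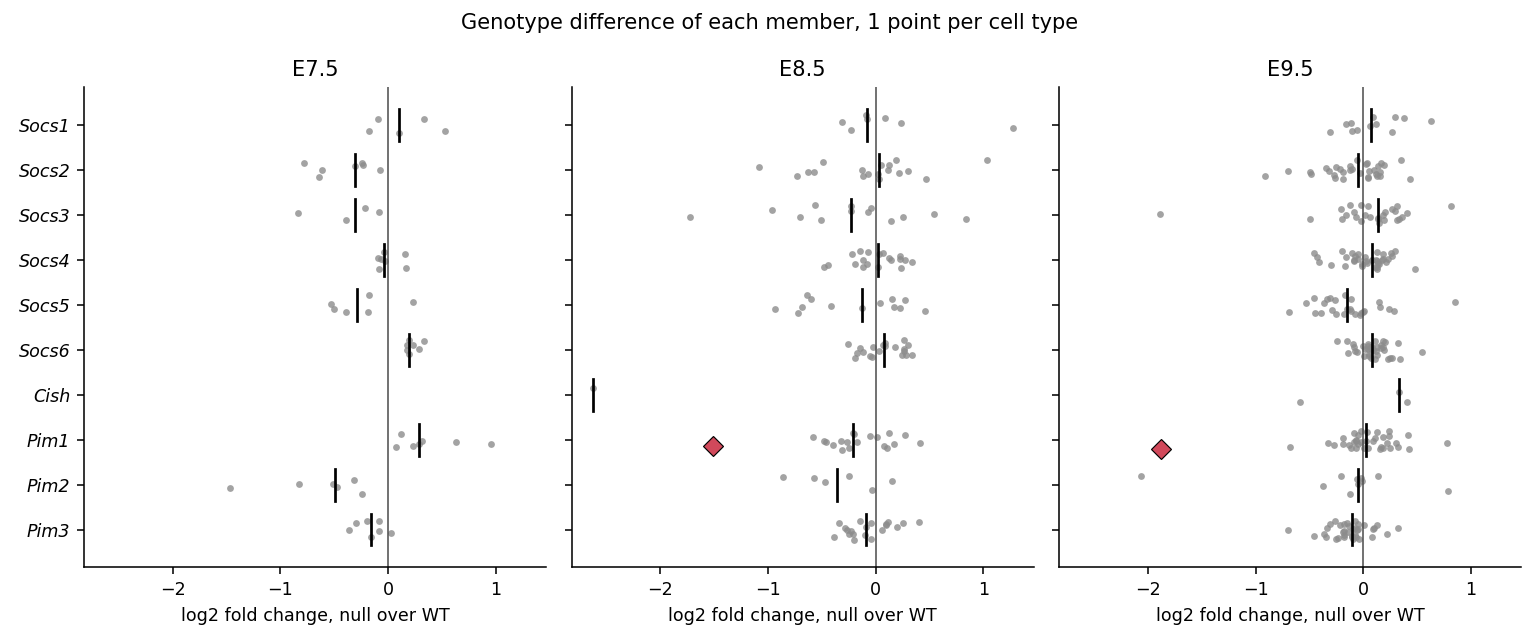
Genotype difference (log2 null over WT, x axis) of each member (rows) at the 3 stages, 1 grey point per cell type that passed the filter, with a black bar at the median and red diamonds for called results. The 2 diamonds are *Pim1* at -1.51 in E8.5 Erythroid and at -1.88 in E9.5 EMP cells.

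*Socs2* (chromosome 10, 95385362 to 95417180) passed the test once, below a 2-fold change. In Placodal ectoderm at E9.5, the thickened surface ectoderm that forms sense organs and cranial ganglia, it was at 271.6 and 260.6 CPM in WT libraries A and D and at 168.5 and 163.8 CPM in null libraries A and B. Neither range touched the other. The difference was -0.69 (SE 0.14, adjusted p = 0.00250, edgeR), and 0.445% of 7649 genes passed at this adjusted p. It did not pass under DESeq2 (0.242), nor without WT A (0.0754) or WT D (0.0652). Red cell markers in this type summed to 203 to 884 CPM over the 4 WT libraries and 8.05 to 87.4 CPM over the 4 null libraries, and their part in the result was not tested.

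In the EMP cells of E9.5, *Pim2* was also lower in null libraries, without passing. It was at 6.64, 9.46, 6.66 and 10.4 CPM in WT and at 2.05, 0, 2.58 and 1.68 CPM in null, where the library at 0 held 8 cells and allows up to 8.95 CPM. The difference was -2.06 (SE 0.52, adjusted p = 0.210, edgeR). Among the fitted libraries *Pim2* reached the filter on low counts only in WT. Its direction is therefore no support for that of *Pim1*. *Stat3* in the same cells was at 30.7 to 37.0 CPM in WT and 5.97 to 11.7 CPM in null.

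Levels in WT cells were ordered for each member over 87 combinations of cell type and stage. *Pim1* was highest in Erythroid cells of E9.5 (264.9 ± 25.5 CPM, SD, n = 4 libraries) and of E8.5 (264.7 ± 7.44, n = 2), which overlapped each other. Next came E9.5 EMP cells (191.5 ± 44.6, n = 4), and the lowest was E7.5 Ectoderm (8.91 ± 0.678, n = 2). *Pim2* peaked where *Pim1* was lowest, in E7.5 Ectoderm (199.9 ± 11.8, n = 2), ahead of Caudal epiblast (88.7 ± 1.84, n = 2), with a median of 3.04 CPM over all combinations. *Pim3* spread evenly, from 10.7 in E9.5 Erythroid cells to 67.4 CPM in E8.5 Venous endothelium. The 3 kinases thus had different places of highest level.

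Among the SOCS genes, *Socs2* and *Socs3* had the highest peaks. *Socs2* was broad, at 10 CPM or more in 70 of 87 combinations (median 20.6 CPM), and peaked in E9.5 Placodal ectoderm (266.1 ± 7.81 CPM, n = 2), followed by Pharyngeal endoderm of E8.5 (134.9 CPM, n = 2) and of E9.5 (92.1 ± 18.7, n = 3). *Socs3* reached 10 CPM in 20 of 87 combinations and was highest in yolk sac (YS) mesothelium at E9.5, at 164.6, 90.2 and 38.0 CPM in 3 WT libraries, and the next type reached 19.5 ± 9.35 CPM (n = 2). In null YS mesothelium *Socs3* was at 35.6, 19.7 and 20.8 CPM, below every WT library, but the WT spread was wide (-1.89, SE 0.85, adjusted p = 0.737, edgeR). *Socs1*, which restrains interferon signalling, also peaked there (20.3 ± 3.22 CPM, n = 3). Its null values of 16.4, 27.6 and 28.3 CPM overlapped the WT values of 23.9, 18.9 and 17.9 CPM.

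The remaining SOCS genes were broad. *Socs4* ranged from 12.4 to 33.0 CPM, *Socs5* from 2.26 to 14.996 CPM and *Socs6* from 11.02 to 54.4 CPM, and *Socs6* was lowest in Erythroid cells of E9.5 and E8.5. *Cish* was scarce, with a median of 1.60 CPM, and was highest in E9.5 Megakaryocyte progenitors (24.3 ± 9.42, n = 2) and E9.5 Erythroid cells (13.4 ± 5.99, n = 4), whose ranges overlapped. Neighbours in the order of most members overlapped in range.

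**Figure D4:**
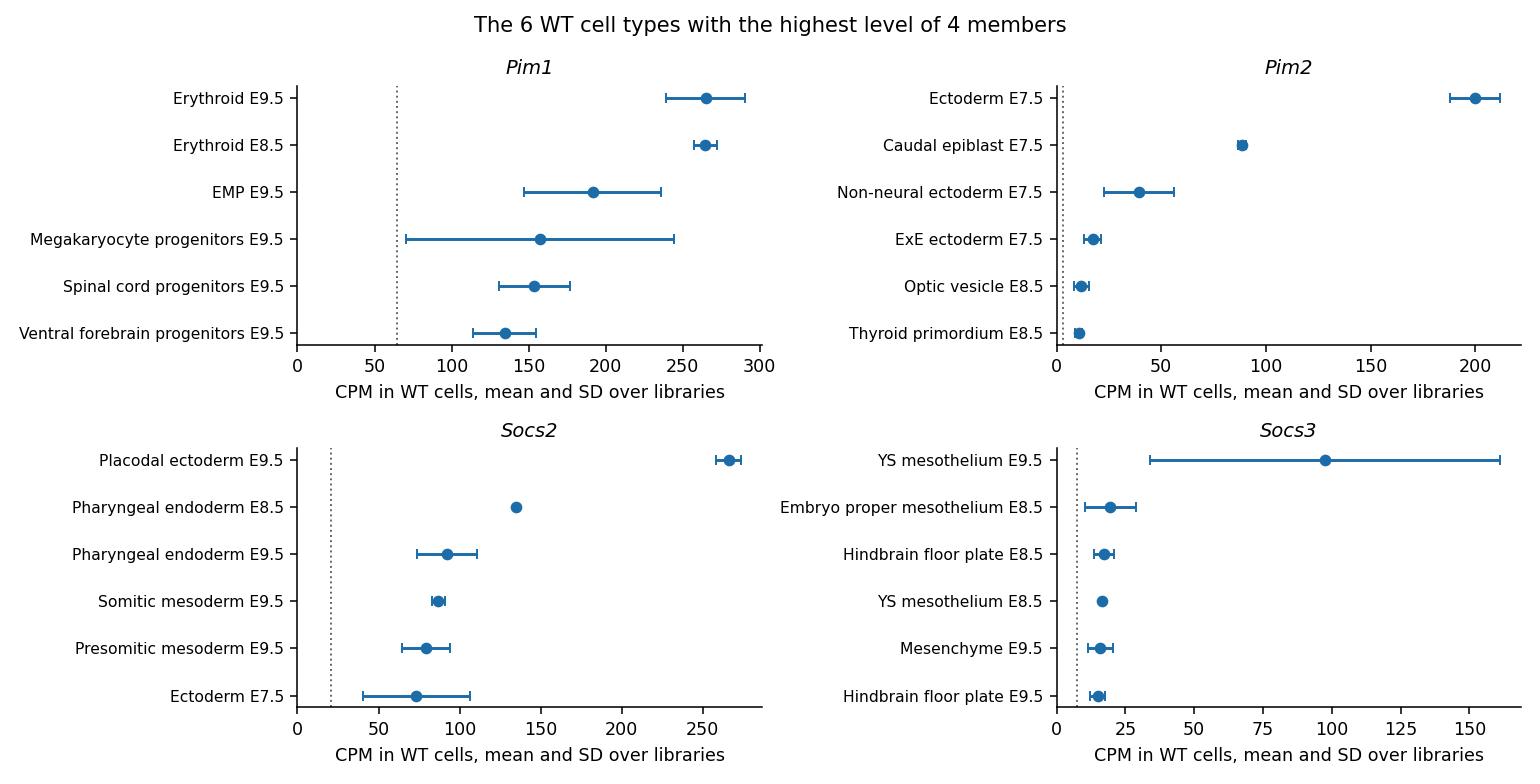
The 6 WT cell types with the highest mean level of *Pim1*, *Pim2*, *Socs2* and *Socs3* (CPM, x axis, point for the mean and bar for the SD over libraries), with a dotted line at the median over 87 combinations of type and stage. *Pim1* leads in Erythroid cells (264.9 CPM), *Pim2* in E7.5 Ectoderm (199.9), *Socs2* in E9.5 Placodal ectoderm (266.1) and *Socs3* in E9.5 YS mesothelium (97.6).

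The genes whose WT pattern was most like that of 4 members were ranked by Pearson's r of log2(CPM + 1) over 59 combinations of type and stage with more than 100 WT cells. These combinations share libraries, so r is given as a description. For *Pim1* they were *Mpc1* and *Dclre1b* (both 0.72), *Slc7a1* (0.67), *Adam10* (0.65) and *Zfp800* (0.63). For *Cish* they were *Uros* (0.76) and *Fech* (0.68), enzymes of haem synthesis, with *Mgst3* (0.75), *C1qtnf4* (0.70) and *Arf5* (0.69). *Socs3* was closest to *Zdhhc1* and *Col11a1* (both 0.81), *Cpq*, *Glt8d1* and *Trim68* (all 0.77). *Socs2* was closest to *Wdr31* (0.67), *Zfp646* (0.65), *Ptpn3* (0.63), *Grk3* and *Bag4* (both 0.62). Between members, the highest r was 0.63 for *Socs6* with *Socs4* and the lowest was -0.53 for *Pim2* with *Pim1*.

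Whole libraries, with all cells summed, mix changes within cells with changes in cell numbers, and are read beside the values per cell type given above. *Pim1* was at 112.1 and 97.2 CPM in WT and 65.6 and 51.9 CPM in null at E8.5, yet at 55.4 and 37.3 against 66.1 and 48.1 CPM at E7.5. The E8.5 difference did not pass (-0.85, SE 0.19, adjusted p = 0.148, edgeR), nor did that of *Cish* (-0.995, SE 0.21, adjusted p = 0.0916). At E9.5 *Pim1* was at 76.9 to 97.3 CPM in WT and 73.8 to 89.5 CPM in null. The genotype difference moved by -1.22 from E7.5 to E8.5 (SE 0.27, adjusted p = 0.0467, edgeR interaction test, passed by 1.41% of 15567 genes), and without Erythroid cells it was -0.58 (adjusted p = 0.454). The interaction missed the threshold on removal of 12 of the 16 libraries in turn (adjusted p 0.0290 to 0.208), all except E7.5 null B, E7.5 WT A, E8.5 null A and E9.5 WT C. From E8.5 to E9.5 no member passed by edgeR or DESeq2, where 0.0321% of genes did by edgeR. The genotype difference moved by 0.78 for *Pim1* (SE 0.23) and by 0.69 for *Cish* (SE 0.25), and neither passed.

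Averaged over stages, *Socs6* was the member that passed in whole libraries, with a small rise in null cells of 0.14 on the log2 scale (SE 0.03, adjusted p = 0.0481, edgeR), among 2.95% of genes. Its levels were 31.8 and 34.0 CPM in WT and 36.8 and 39.2 CPM in null at E7.5, 31.9 and 32.7 against 34.9 and 36.5 CPM at E8.5, and 41.7 to 45.0 against 44.5 to 46.9 CPM at E9.5. The ranges were apart at E7.5 and E8.5 and overlapped at E9.5. Taken by stage, *Socs6* passed at E7.5 (0.25, SE 0.07, unadjusted p = 0.00226, adjusted p = 0.0456, edgeR, where 5.34% of genes passed). It did not pass at E8.5 (0.12, SE 0.07, unadjusted p = 0.0859, edgeR) or E9.5 (0.09, SE 0.05, unadjusted p = 0.0798, adjusted p = 0.659, edgeR). The change in the difference from E7.5 to E8.5 did not pass (-0.13, adjusted p = 0.713, edgeR interaction test). The E7.5 result, too, was lost on removal of 14 of the 16 libraries in turn (adjusted p 0.0296 to 0.276), all except E7.5 WT B and E9.5 null B. The averaged difference stayed at 0.11 to 0.15 when 1 library was left out. The averaged call ended when Erythroid cells were left out (adjusted p = 0.0845, edgeR), and with no filter on low counts (0.0575). It was also lost on removal of 14 of the 16 libraries in turn (adjusted p 0.0480 to 0.0947), all except null C and WT C of E9.5. *Cish* (-0.44, adjusted p = 0.0759) and *Socs5* (-0.20, adjusted p = 0.0803) did not pass.

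Holding the mix of cell types fixed gave a different order. Each member was averaged over 7, 20 and 20 cell types at the 3 stages and genotype labels were exchanged within stages in all 2520 ways (exact two-sided permutation test). *Socs5* was lower in null cells by -0.25 on the log2(CPM + 1) scale (exact permutation p = 0.00238, adjusted over all genes 0.0647), in the same direction at each stage (-0.35, -0.28 and -0.13). By the same exact test *Pim3* (-0.12, p = 0.0286) and *Socs2* (-0.18, p = 0.0460) had adjusted p of 0.216 and 0.269, and *Pim1* had 0.04 (p = 0.773). Unadjusted p under 0.05 was reached by 3 of the 10 members and by 17.7% of 11133 genes. After adjustment 210 genes passed and no member did.

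Between stages, 6 members passed the test in whole WT libraries from E7.5 to E8.5 and 2 from E8.5 to E9.5 (edgeR, adjusted p under 0.05), where 43.2% and 38.7% of 15293 genes passed. From E7.5 to E8.5, *Pim2* fell by 3.99 on the log2 scale (adjusted p = 0.000395), *Pim1* rose by 1.35 (0.00117) and *Cish* rose by 1.11 (0.00400). These 3 were over 2-fold, as were 17.2% of genes. *Cish* fell under 2-fold without E8.5 WT A (0.89). Erythroid cells numbered 4 and 1 in the WT libraries of E7.5 and 426 and 622 in those of E8.5. With Erythroid cells left out, the *Pim2* fall was -3.86 (adjusted p = 0.000403), while *Pim1* was at 0.42 (0.124) and *Cish* at 0.17 (0.521) and neither passed. Below 2-fold, *Socs2* fell by 0.82 (0.0136), *Socs3* rose by 0.59 (0.0229) and *Pim3* fell by 0.47 (0.00375), and all 3 passed without Erythroid cells too. *Socs6*, at 0.14 (0.129), passed only without Erythroid cells, at 0.23 (0.0202). *Socs2* did not pass without E8.5 WT A (0.0808) or B (0.0531), nor *Socs3* without E7.5 WT B (0.133), E8.5 WT A (0.0989) or E8.5 WT B (0.0549). Single libraries moved the *Socs2* change between -1.11 and -0.39 and the *Socs3* change between 0.34 and 0.89.

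From E8.5 to E9.5, 9.72% of genes were called at over 2-fold and no member was, by edgeR or DESeq2. *Socs3* rose by 0.70 (adjusted p = 0.00606), and by 0.53 without Erythroid cells (0.0261), but did not pass without E8.5 WT B (0.0617). *Pim1* fell by 0.55 (adjusted p = 0.0251), and its direction turned to 0.30 (0.227) without Erythroid cells. The *Pim1* call was also lost without E8.5 WT A (0.158) or B (0.0629), or E9.5 WT A (0.0577) or C (0.0536).

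**Figure D5:**
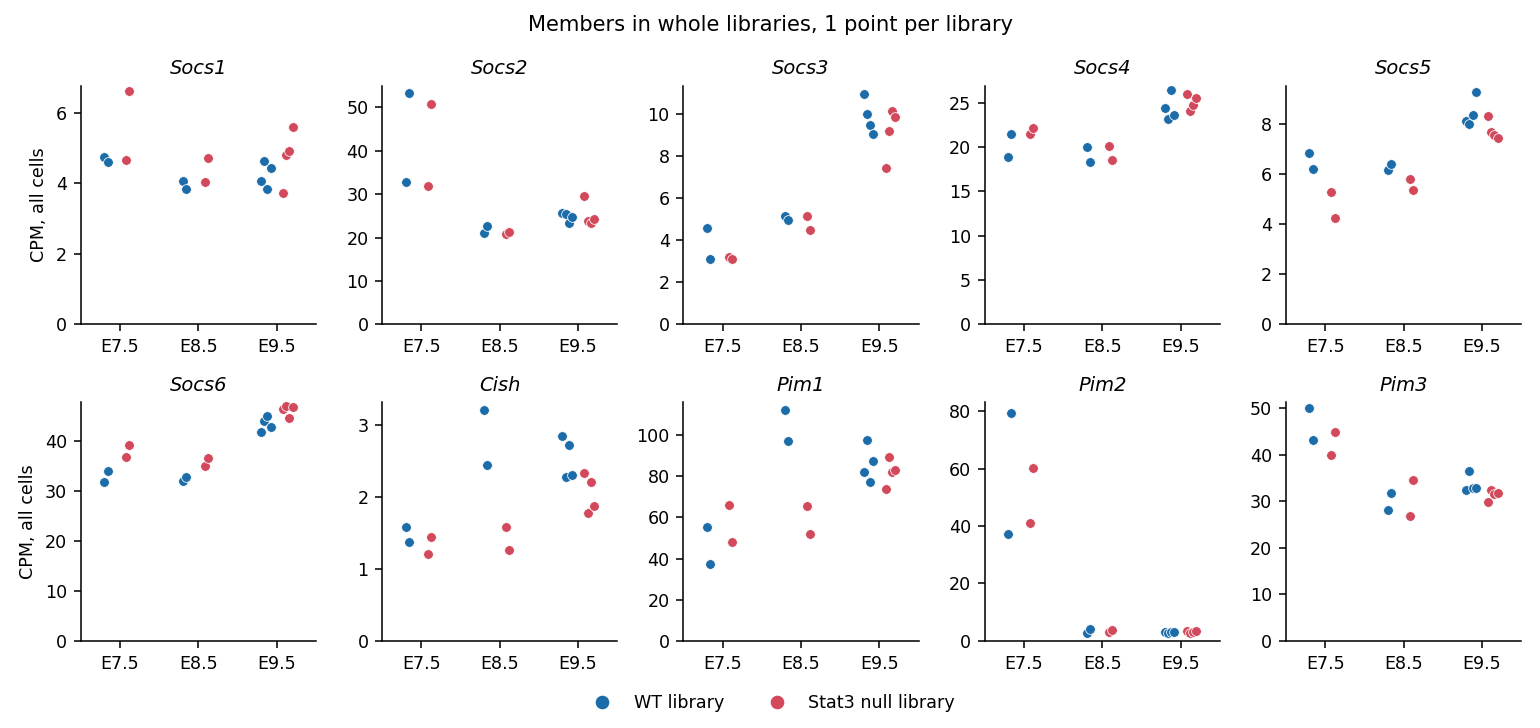
Level of each member (CPM over all cells of a library, y axis) by stage (x axis), 1 point per library (blue WT, red null). *Pim1* null libraries lie at 51.9 and 65.6 CPM below WT at 97.2 and 112.1 CPM at E8.5, and *Pim2* drops after E7.5 in both genotypes. That *Pim1* difference did not pass the test (adjusted p = 0.148, edgeR).

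Other genes of the pathway were read from a list of 94 ligands, receptors, kinases, STATs, inhibitors, partners and targets, of which 80 could be tested in at least 1 type. Over 3129 pairs of gene and type there were 15 calls lower in null cells and 1 higher (0.511% of pairs, against 0.11% of all gene and type pairs). *Stat3* itself gave 10 of the lower calls, and without it 5 lower and 1 higher were left of 3109 pairs (0.193%). *Csf2rb* (-4.70, adjusted p = 0.0323), the common beta chain of the IL-3, GM-CSF and IL-5 receptors, and *Csf2rb2* (-5.62, adjusted p = 0.0248), the beta chain specific to IL-3, were lower in E8.5 Erythroid cells, and *Csf2rb* also in E9.5 EMP cells (-2.95, adjusted p = 0.0326). Of these 3 receptor calls 1 was made by limma-voom, which gave an adjusted p of 0.0672 for *Csf2rb2* and of 0.199 for *Csf2rb* in EMP cells. Both Erythroid calls were lost without WT A (0.0587 for each), that of *Csf2rb* also with no filter on low counts (0.0652), and the EMP call without null A (0.102) or null D (0.102) and with all 16 libraries in 1 fit (0.224). *Stat5a* (-4.17, adjusted p = 8.08e-05) and *Stat5b* (-1.58, adjusted p = 0.00136) were lower in E7.5 Blood progenitors, and annotated exons of *Stat5a* overlap *Stat3* on the opposite strand. The *Stat5b* call was lost without null A (0.183). In E8.5 Erythroid cells *Stat5a* (-2.23, adjusted p = 0.0795) and *Stat5b* (-1.38, adjusted p = 0.0757) did not pass by edgeR, though DESeq2 called both. The cyclin gene *Ccnd1* was higher in E9.5 EMP cells (1.69, adjusted p = 0.0369), but not without WT A (0.0562), WT B (0.133), WT D (0.123) or null A (0.0656). No JAK kinase, SOCS box partner, other inhibitor or PIM substrate was called by edgeR, and none of the 3 ligands, of 15 listed, that could be tested. By DESeq2 the same roles held 1 call, the cell cycle inhibitor gene *Cdkn1a* in E8.5 Erythroid cells (1.37, adjusted p = 0.0404, against an adjusted p of 0.46 by edgeR), and by limma-voom 0.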

How the data were processed

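Single-cell 3′ libraries (10x Genomics v3) of sorted null and WT cells were used. The authors mapped reads to mm10 with Cell Ranger, counted them with the tdTomato sequence added, and deposited raw UMI counts per gene and cell with no normalization, together with cell type labels, doublet calls, matched atlas stages and the mitochondrial percent of UMIs per cell. Of 192657 barcodes listed, 41832 cells were in the deposited counts. Doublets (3395) and WT cells with a tdTomato UMI (596) were left out. Columns of per-sample values that matched no sample numbered 0.

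Groups are those of the sample labels, but library names match no sample title. Each library was therefore put in its group by the stage and tdTomato gate that the authors' deposited cell table gives for its cells, and every group then held as many libraries as the labels give it. Which library is which labelled replicate, and so which embryo pool, is not known, and the pool in the study's design could not be fitted. The members, lists and tests were chosen with earlier results of these data known. All 10 members are named, as is every gene of the pathway list called in a cell type, and the 5 genes most like each of 4 members.

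Counts were summed per library and cell type, where 2 or more libraries of either genotype held over 15 cells of the type, and tested with edgeR 4.0.16 (robust quasi-likelihood, TMM, filterByExpr) in R 4.3.3, with Benjamini-Hochberg adjustment over all genes tested in a type. Of 29453 genes, 8178 were left out before testing (predicted genes, genes of haemoglobin, ribosomal proteins and mitochondria, and Y-linked genes among them). Whole-library fits had stage as a covariate. For edgeR results the SE is the absolute log2 difference divided by the square root of the F statistic. It restates the test and is not a separate estimate of the spread between libraries. The averaged levels used log2(CPM + 1). A count of 0 was taken to allow up to 3 counts, for counting error only. DESeq2 1.42.0, limma-voom (limma 3.58.1, robust), no filter, 1 fit over 16 libraries, other cell limits and leaving out each library were tried. The tests were tested on simulated counts. Depth was 20682659 to 138613245 UMIs per library.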

Additional observations from a re-analysis of the deposited data

Results flagged for a closer look

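In all, 21 groups of 4 E9.5 libraries were screened for a library apart from the rest. These were each member in whole libraries of either genotype, and *Pim1* in WT EMP cells. The screen found 2, both in whole libraries, where chance gives about 1 in 20 groups. *Pim3* was at 36.5 CPM in WT library B, against 32.5 to 32.9 CPM in the other WT libraries. *Socs2* was at 29.5 CPM in null library A, against 23.4 to 24.2 CPM in the other null libraries.

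The genotype difference of *Pim1* in whole libraries differed between E7.5 and E8.5 by -1.22 on the log2 scale, and the adjusted p passed the threshold in 6 of 19 alternatives. At E8.5 the genotype difference in Erythroid cells differed from that in other cells by -1.41 for *Pim1* and by -2.64 for *Cish*. The *Pim1* value passed in 5 of 6 alternatives and the *Cish* value in 2 of 6.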

How the results depend on the processing

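No paired analysis was possible because the library names match no sample title and the cells carry no embryo pool. Leaving out 1 of 2 libraries of a group assumes that the lone library varies like those of the other group. Of 488 values under alternatives for 36 results, 324 stayed on their side, 91 became weaker, 7 stronger, 62 moved and 4 reversed. The embryo pool was not fitted, and averaging over types with more than 50 cells could not be done, since no E7.5 type had that many in every library.

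The count of 2 member calls became 1 under limma-voom, with more than 50 cells, or with the shared barcodes left out (chosen after seeing the data), and 4 with no filter on low counts or with all 16 libraries in 1 fit. It ranged from 1 to 4 when 1 library was left out. The 16 pathway calls became 33 with no filter and 8 with more than 50 cells, and ranged from 10 to 23 without 1 library. The 1 member called in E8.5 Erythroid cells became 2 under DESeq2, 3 with no filter, 3 with all 16 libraries, 2 with null cells lacking a tdTomato UMI left out, and 0 to 2 without 1 library. The 1 member that passed in whole libraries became 3 under DESeq2, 0 with no filter, 0 without Erythroid cells and 0 to 1 without 1 library. The 1 difference between stages became 0 without Erythroid cells and 0 to 1 without 1 library. The 3 stage calls in WT became 1 without Erythroid cells and ranged from 2 to 4. The 2 members whose Erythroid difference exceeded that in other cells became 1 under limma-voom and 0 to 2 without 1 library. The 3 averaged differences with an unadjusted p under 0.05 ranged from 1 to 5. In E8.5 Erythroid cells the *Socs5* difference reversed to -0.14 when null cells lacking a tdTomato UMI were left out, and that of *Pim3*, -0.20 with all libraries, ranged from -0.47 to 0.12 without 1 library, reversing to 0.12 without null A and to 0.0079 without WT B. The *Pim1* change in WT from E8.5 to E9.5 reversed to 0.30 without Erythroid cells. The cause was not tested. *Pim1* in E8.5 Erythroid cells kept its direction in 11 of 11 alternatives (-1.70 to -1.32 without 1 library) and its call in 10. *Pim1* in E9.5 EMP cells kept its direction in 15 of 15 and its call in 9, and the limma-voom adjusted p was 0.0511. The low UMI counts of *Socs1*, *Socs3*, *Pim2* and *Cish* limit what could be detected in small types.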

Other observations

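In Caudal epiblast at E7.5, the posterior epiblast near the primitive streak, the libraries of the 2 genotypes were apart for *Pim1* and *Pim2* without a call, a type chosen after its values were seen. *Pim1* was at 118.8 and 49.5 CPM in WT and at 162.0 and 149.9 CPM in null (log2 difference 0.96, adjusted p = 1.00, edgeR), and *Pim2* was at 90.0 and 87.4 CPM in WT and at 62.4 and 59.5 CPM in null (-0.52, adjusted p = 0.582). *Pim3* overlapped, at 33.1 and 21.95 CPM in WT and at 22.6 and 33.2 CPM in null (-0.09, adjusted p = 1.00). None of the 3 passed the test, and the share of all genes with ranges apart is not given here. In YS mesothelium at E8.5, *Socs1* was at 5.69 and 6.44 CPM in WT and at 14.6 and 14.0 CPM in null (1.27, adjusted p = 1.00, edgeR), from 5 to 45 UMIs per library. This was the highest difference of *Socs1* among the 7 types tested at E8.5, so the type was also chosen by its values.

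Megakaryocyte progenitors, the precursors of platelet-forming cells, had few cells per library and no test. At E8.5 *Pim1* was at 123.3 and 144.3 CPM in WT, at 92.9 CPM in null library A with 40 cells, and at 13.4 CPM in null library B, where 2 cells held 1 *Pim1* UMI. At E9.5 it was at 114.3, 218.9, 101.1 and 96.1 CPM in WT and at 98.6, 56.6, 23.1 and 68.8 CPM in null, from 3 to 16 null cells per library. The ranges of the genotypes overlapped at E9.5.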
